A study of Rattus norvegicus with 14 samples.

Results

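Adgre1, Csf1r, Cd68, Cd163, Mrc1, Lyz2, Aif1, Cd14, Itgam and Ptprc are transcripts by which macrophages are commonly recognised in tissue, and they are described here in the thoracic aorta of rats with renal failure. They were chosen by symbol: a probe set belonged to the set if the platform annotation gave it a single gene symbol on that list, and the probe set with the highest mean over the 14 arrays represented its gene. All 10 genes were measured, by 12 of the 31099 probe sets, among 14217 named genes. Aif1 and Ptprc had 2 probe sets each.

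The samples were thoracic aortas of Sprague-Dawley rats with chronic renal failure induced by adenine (A-CRF, 8 arrays) and of Control rats of the same strain (6 arrays), with 1 array per sample. Adenine fed in excess damages the kidney through crystals that form in its tubules. Nothing in the labels gives the dose, the duration, or the age and sex of the animals. They also do not say whether the samples came from separate animals, and p-values therefore measure only the spread between these arrays. Values are log2 signals of a 1-colour Affymetrix array, labelled from an oligo-dT primer, and the lowest value in the table was 4.82. The number of arrays limits the precision. Because RNA came from tissue and not from sorted cells, more macrophages and more transcript per macrophage cannot be told apart.

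Macrophages of the arterial wall lie mostly in the adventitia. Some are long-lived residents that often carry the scavenger receptor CD163, the mannose receptor and LYVE1, and others derive from blood monocytes. Their survival depends on the receptor encoded by Csf1r, whose ligands are CSF1 and IL-34, and many of their genes are controlled by the transcription factor PU.1, the product of Spi1.

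Transcripts of 6 of the 10 macrophage markers rose in A-CRF aortas, 0 fell and 4 did not pass the test (limma, adjusted p under 0.05 over all probe sets). Those that rose were Adgre1, Csf1r, Cd68, Cd163, Lyz2 and Ptprc. Of all 14217 genes, 1.93% were higher in A-CRF at that threshold and 2.99% passed it in either direction. The 10 markers were chosen with earlier results of these data known, so their count beside these shares is a description only. The changes were modest: the median over the 10 markers was 0.38 on the log2 scale, a 1.30-fold difference, beside -0.0012 over all genes, and Lyz2 alone passed 1.5-fold. The count of 6 became 4 with an adipocyte marker mean in the model and 2 with a score of circadian clock genes in it. Over all probe sets the 636 calls became 382 and 149 with the same covariates. All 10 differences were positive, where 48.8% of all genes had a positive difference. By limma 9 had an unadjusted p under 0.05. The share of all genes at that unadjusted p is not given, here or for the lists below. An exact rank-sum test, adjusted in the same way, called 5 of the 10 markers, beside 429 of all 31042 probe sets. In 5 markers every A-CRF array lay above every Control array, which held for 1.46% of all genes. The mean of the 10 markers ran between 6.86 and 7.25 over A-CRF arrays, against 6.57 and 6.68 over Control arrays.

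**Figure D1:**
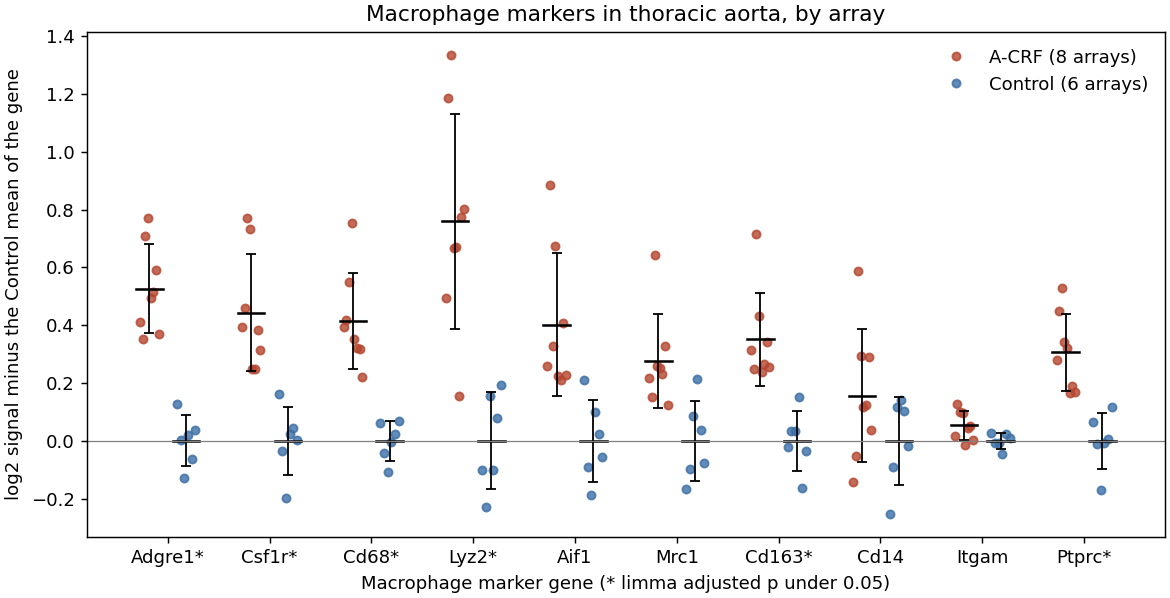
Log2 signal of each macrophage marker on each array, shown as the difference from the mean of the Control arrays for that gene. Red points are the 8 A-CRF arrays and blue points the 6 Control arrays, bars give the mean and SD, and an asterisk marks an adjusted p under 0.05 (limma); the groups are apart for Adgre1, Csf1r, Cd68, Cd163 and Ptprc and overlap for the other markers.

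Promoters are shown for 5 of the 6 markers that rose, those that hold a motif of PU.1, because this factor is known to act on many macrophage genes; Cd163 also rose and holds no such motif, so its promoter is not printed and the choice fixes that every sequence shown has one. Each sequence runs 5′ to 3′ on the strand of the gene, from 250 bases before to 50 bases after the annotated start, and comes from RefSeq (build GRCr8). Capitals mark GAGGAA, the purine-rich core that PU.1 prefers, or TTCCTC, the same letters on the opposite strand.
Adgre1 (GRCr8, chr9:2329190-2329489, plus strand): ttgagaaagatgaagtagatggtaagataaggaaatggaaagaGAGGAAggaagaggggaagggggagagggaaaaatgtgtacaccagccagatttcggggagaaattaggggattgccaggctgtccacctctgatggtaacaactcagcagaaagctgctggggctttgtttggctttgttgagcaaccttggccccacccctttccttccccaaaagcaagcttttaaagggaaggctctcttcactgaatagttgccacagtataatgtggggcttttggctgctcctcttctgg
Csf1r (GRCr8, chr18:56834129-56834428, plus strand): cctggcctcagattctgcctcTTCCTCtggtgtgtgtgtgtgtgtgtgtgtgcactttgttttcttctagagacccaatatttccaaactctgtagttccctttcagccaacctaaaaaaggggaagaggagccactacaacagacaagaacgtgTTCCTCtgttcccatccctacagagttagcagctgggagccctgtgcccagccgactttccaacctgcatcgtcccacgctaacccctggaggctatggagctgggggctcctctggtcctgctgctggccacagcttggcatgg
Cd68 (GRCr8, chr10:54882392-54882691, minus strand): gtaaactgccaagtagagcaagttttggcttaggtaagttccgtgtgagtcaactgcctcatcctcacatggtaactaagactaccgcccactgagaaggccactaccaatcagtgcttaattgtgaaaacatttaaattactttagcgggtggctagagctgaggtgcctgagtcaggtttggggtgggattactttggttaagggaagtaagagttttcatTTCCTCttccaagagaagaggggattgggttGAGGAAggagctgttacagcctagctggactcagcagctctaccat
Lyz2 (GRCr8, chr7:54797962-54798261, minus strand): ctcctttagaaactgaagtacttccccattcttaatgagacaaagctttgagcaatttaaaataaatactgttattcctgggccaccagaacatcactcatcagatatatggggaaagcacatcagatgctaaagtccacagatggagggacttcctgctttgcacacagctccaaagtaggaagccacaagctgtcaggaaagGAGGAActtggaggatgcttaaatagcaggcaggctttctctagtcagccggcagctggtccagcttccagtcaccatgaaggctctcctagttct
Ptprc (GRCr8, chr13:52259697-52259996, minus strand): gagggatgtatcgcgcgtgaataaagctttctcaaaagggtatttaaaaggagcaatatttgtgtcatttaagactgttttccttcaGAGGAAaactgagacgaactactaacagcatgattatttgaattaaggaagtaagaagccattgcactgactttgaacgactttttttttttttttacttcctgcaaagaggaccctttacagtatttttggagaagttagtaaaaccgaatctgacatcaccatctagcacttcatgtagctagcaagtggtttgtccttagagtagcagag

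In the Adgre1 promoter the first base of the motif lay 207 bases before the start, in Ptprc 163 and in Lyz2 46. Csf1r held the opposite-strand form at 229 and 95 bases before the start. Cd68 held that form 27 bases before the start and GAGGAA again 5 bases after it. Of the 9 markers found in the promoter table, 8 (88.9%) held the motif on either strand, Cd163 being the exception, and Aif1 was not in it. The motif stood in 27.6% of the 33469 promoters of 300 bases. Among markers that did not pass the test, Mrc1 held it at 180 and 35 bases before the start, Cd14 at 140 and 105, and Itgam at 151 and 39. A match to these letters is a description of the sequence, and binding was not measured.

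Adgre1 encodes an adhesion receptor whose mouse counterpart is a widely used macrophage antigen in histology. Its log2 signal was 6.26, 6.41 and 6.68 (lowest, median and highest) on A-CRF arrays, against 5.78, 5.92 and 6.03 on Control arrays. The groups did not overlap. Means ± SD were 6.43 ± 0.15 over the 8 A-CRF arrays and 5.91 ± 0.09 over the 6 Control arrays, a rise of 0.53 ± 0.07 (SE; 95% confidence interval 0.38 to 0.67) or 1.44-fold, with a limma adjusted p of 0.0034. Adgre1 had the lowest adjusted p of the 10 markers.

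Csf1r is the receptor tyrosine kinase on which macrophage survival depends. Its signal was 7.24, 7.38 and 7.76 on A-CRF arrays, against 6.79, 7.01 and 7.16 on Control arrays, without overlap. A-CRF 3 and A-CRF 4 were the high arrays, at 7.76 and 7.72, and the other 6 A-CRF arrays lay at or below 7.45. The rise was 0.44 ± 0.09 (SE), 1.36-fold, with an adjusted p of 0.0204. With the clock score in the model the log2 difference was 0.36 and the adjusted p 0.0901, in a range of 0.0124 to 0.0901 over all alternatives.

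Cd68 encodes a lysosomal glycoprotein, the ED1 antigen of rat histology. Signals of 6.29, 6.44 and 6.82 on A-CRF arrays stood against 5.96, 6.08 and 6.14 on Control arrays. Again the groups did not overlap, and the Control arrays were close together, with an SD of 0.07. Cd68 rose by 0.42 ± 0.07 (SE), 1.33-fold, with an adjusted p of 0.0093.

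Lyz2 encodes lysozyme, an enzyme that digests bacterial cell walls and is made in quantity by macrophages. Its signal was 9.97, 10.53 and 11.15 on A-CRF arrays, against 9.58, 9.80 and 10.01 on Control arrays. One A-CRF array, A-CRF 6, fell inside the Control range, and A-CRF 2 and A-CRF 3 were highest, at 11.00 and 11.15. Its rise of 0.76 ± 0.15 (SE), 1.69-fold, was the largest fold change among the markers and also had the largest SE, with an adjusted p of 0.0226. The adjusted p was 0.0515 without Control 2 and 0.0529 without Control 4, in a range of 0.0092 to 0.0975 over all alternatives, and the change itself stayed between 0.68 and 0.85.

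Aif1 encodes IBA1, a calcium-binding protein of activated macrophages and microglia. The signal was 6.59, 6.67 and 7.26 on A-CRF arrays, against 6.19, 6.36 and 6.59 on Control arrays. A-CRF 2 and A-CRF 4 stood high at 7.26 and 7.05, while A-CRF 6 lay at the level of the highest Control array. The difference of 0.40 ± 0.11 (SE) did not pass the test (adjusted p = 0.0677), except with the dimmest probe sets (below the 40th percentile) left out, where fewer tests were adjusted for (0.0455), in a range of 0.0455 to 0.252 over all alternatives. The second Aif1 probe set, less than 1 log2 unit above the bottom of the scale, averaged 5.68 in each group, and the mean of the pair differed by 0.20.

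Cd163 and Mrc1 are receptors often used for resident or alternatively activated macrophages. Cd163, the haemoglobin scavenger receptor and ED2 antigen of rat histology, had signals of 6.26, 6.31 and 6.73 on A-CRF arrays, against 5.86, 6.03 and 6.17 on Control arrays. The groups were apart, and A-CRF 3 stood well above the other A-CRF arrays. Cd163 rose by 0.35 ± 0.07 (SE), 1.28-fold, with an adjusted p of 0.0226. The adjusted p was 0.0565 without Control 5, 0.0513 without Control 6 and 0.0589 without the 3 arrays (A-CRF 1, A-CRF 4 and Control 1) whose GAPDH 3' minus 5' difference was high, in a range of 0.0092 to 0.0927 over all alternatives. The log2 difference in those 3 fits was 0.32, 0.34 and 0.34.

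Mrc1, the mannose receptor CD206, showed 7.36, 7.48 and 7.88 on A-CRF arrays, against 7.07, 7.21 and 7.45 on Control arrays. The highest Control array was above 2 of the 8 A-CRF arrays, and A-CRF 3 was again the highest of all. The difference of 0.28 ± 0.08 (SE; 95% confidence interval 0.11 to 0.44) did not pass the test, with an adjusted p of 0.0823.

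Cd14 and Itgam are expressed by blood monocytes as well as macrophages. Cd14, the co-receptor for bacterial lipopolysaccharide, had signals of 6.47, 6.73 and 7.20 on A-CRF arrays, against 6.36, 6.65 and 6.75 on Control arrays. The groups overlapped widely, with 3 of 8 A-CRF arrays above all Control arrays. The difference was 0.16 ± 0.10 (SE; 95% confidence interval -0.06 to 0.37), with an adjusted p of 0.556.

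Itgam, the alpha chain of the integrin Mac-1 (CD11b), was read close to the bottom of the scale. Its signal was 5.25, 5.31 and 5.39 on A-CRF arrays, against 5.21, 5.26 and 5.29 on Control arrays, and its Control mean stood 0.44 above the lowest value in the table. The difference was 0.05 ± 0.02 (SE), with an adjusted p of 0.299. A change in Itgam may not be readable at this signal. Its integrin partner Itgb2, with signals of 6.10 to 6.66 in A-CRF and 6.08 to 6.15 in Control, differed by 0.19 ± 0.08 (SE; adjusted p = 0.263).

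Ptprc encodes CD45, the membrane phosphatase carried by all white blood cells and therefore the least specific marker of the set. Signals of 6.16, 6.29 and 6.52 on A-CRF arrays stood against 5.82, 5.99 and 6.11 on Control arrays, without overlap. Ptprc rose by 0.31 ± 0.06 (SE), 1.24-fold, with an adjusted p of 0.0211. The adjusted p was 0.0508 with the adipocyte mean in the model and 0.0599 with the clock score, in a range of 0.0124 to 0.0599 over all alternatives, and the log2 difference was 0.29 and 0.22. Its second probe set, close to the lowest values, averaged 5.33 in A-CRF and 5.26 in Control and did not pass (adjusted p = 0.185); the mean of both probe sets differed by 0.19.

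Most general genes of macrophages and other myeloid cells outside the set rose as well. Of 14 such general genes measured, 10 rose, 0 fell and 4 did not pass, where 1.93% of all genes rose, and the median difference was 0.40. The list was chosen with earlier results of these data known, so it gives no independent support for the markers. Cybb, the membrane subunit of the phagocyte NADPH oxidase, had signals of 7.43, 7.63 and 7.96 in A-CRF, against 6.66, 7.05 and 7.17 in Control. It rose by 0.68 ± 0.09 (SE; adjusted p = 0.0039), without overlap of the groups. C1qa, a chain of the first complement component that macrophages secrete, had 7.82, 8.01 and 8.40 in A-CRF, against 7.19, 7.42 and 7.61 in Control, a rise of 0.65 ± 0.09 (SE; adjusted p = 0.0039). C1qb rose by 0.42 ± 0.09 (SE; adjusted p = 0.0318), and its partner chain gene C1qc, with a difference of 0.47 ± 0.12 (SE), did not pass (adjusted p = 0.063). Ctss, a lysosomal protease of antigen-presenting cells, rose by 0.65 ± 0.09 (SE; adjusted p = 0.0046) and Clec7a, the beta-glucan receptor dectin-1, by 0.34 ± 0.06 (SE; adjusted p = 0.0107). Fcer1g, Tyrobp, Cd53, Mpeg1 and Ms4a7 also passed, whereas Laptm5, Itgb2 and the fractalkine receptor Cx3cr1 did not. The count of 10 became 6 without Control 2, 5 without Control 3 and 6 without Control 5, and 3 with the clock score in the model. Spi1, which encodes PU.1, was not analysed here.

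Genes associated with resident macrophages and genes of inflammatory or newly recruited cells were compared as lists outside the 10 markers. For scale, 1.93% of all genes rose in A-CRF. Of 8 resident-associated genes measured, 2 rose, 0 fell and 6 did not pass; all 8 differences were positive, 6 had an unadjusted p under 0.05, and the median was 0.24. Folr2, a folate receptor of tissue macrophages, had signals of 6.43, 6.64 and 6.85 in A-CRF, against 6.16, 6.24 and 6.44 in Control, a rise of 0.39 ± 0.07 (SE; adjusted p = 0.0111). Clec10a, a galactose-type lectin, had 6.81, 7.09 and 7.31 in A-CRF, against 6.49, 6.61 and 6.79 in Control, and rose by 0.41 ± 0.08 (SE; adjusted p = 0.021). The groups were apart for Clec10a, and 7 of 8 A-CRF arrays lay above all Control arrays for Folr2. Lyve1, the hyaluronan receptor of resident adventitial macrophages that is also made by lymphatic endothelium, had 7.32 to 7.99 in A-CRF and 7.36 to 8.06 in Control, with a difference of 0.06 ± 0.12 (SE; 95% confidence interval -0.20 to 0.33). The Lyve1 ranges were nearly the same. For the resident list, 1 gene passed by the exact rank-sum test, 1 with the adipocyte marker mean in the model and 0 with the clock score in it, and the count was 1 without Control 5.

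Of 15 inflammatory genes measured, 2 rose, 0 fell and 13 did not pass, where 1.93% of all genes rose. The median was 0.02 and 4 had an unadjusted p under 0.05. Tlr2, a receptor for bacterial lipoproteins, had signals of 5.53, 5.62 and 5.72 in A-CRF, against 5.38, 5.42 and 5.45 in Control, a rise of 0.20 ± 0.03 (SE; adjusted p = 0.0049). Fcgr1a, the high-affinity receptor for immunoglobulin G, had 5.93, 6.03 and 6.14 in A-CRF, against 5.72, 5.81 and 5.85 in Control, and rose by 0.22 ± 0.04 (SE; adjusted p = 0.0089). Neither gene's groups overlapped, where every A-CRF array lay above every Control array for 1.46% of all genes. Both Control means were less than 1 log2 unit above the bottom of the scale. Without A-CRF 8 the inflammatory count was 4. Ccr2, the chemokine receptor of recruited monocytes, differed by 0.01 ± 0.02 (SE), the cytokine gene Il1b by 0.06 ± 0.04 and Tnf by -0.04 ± 0.04, and none of them passed. These values come with a limit: 3 of the 15 inflammatory genes had a Control mean more than 1 log2 unit above the lowest value in the table, against 8 of 8 resident-associated genes and 9 of 10 markers, so a change in most inflammatory genes may not be readable. That bound was cleared narrowly by the markers Adgre1, Ptprc, Cd163 and Cd68, whose Control means stood 1.09, 1.17, 1.20 and 1.25 above the lowest value. The difference between the lists was not tested.

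**Figure D2:**
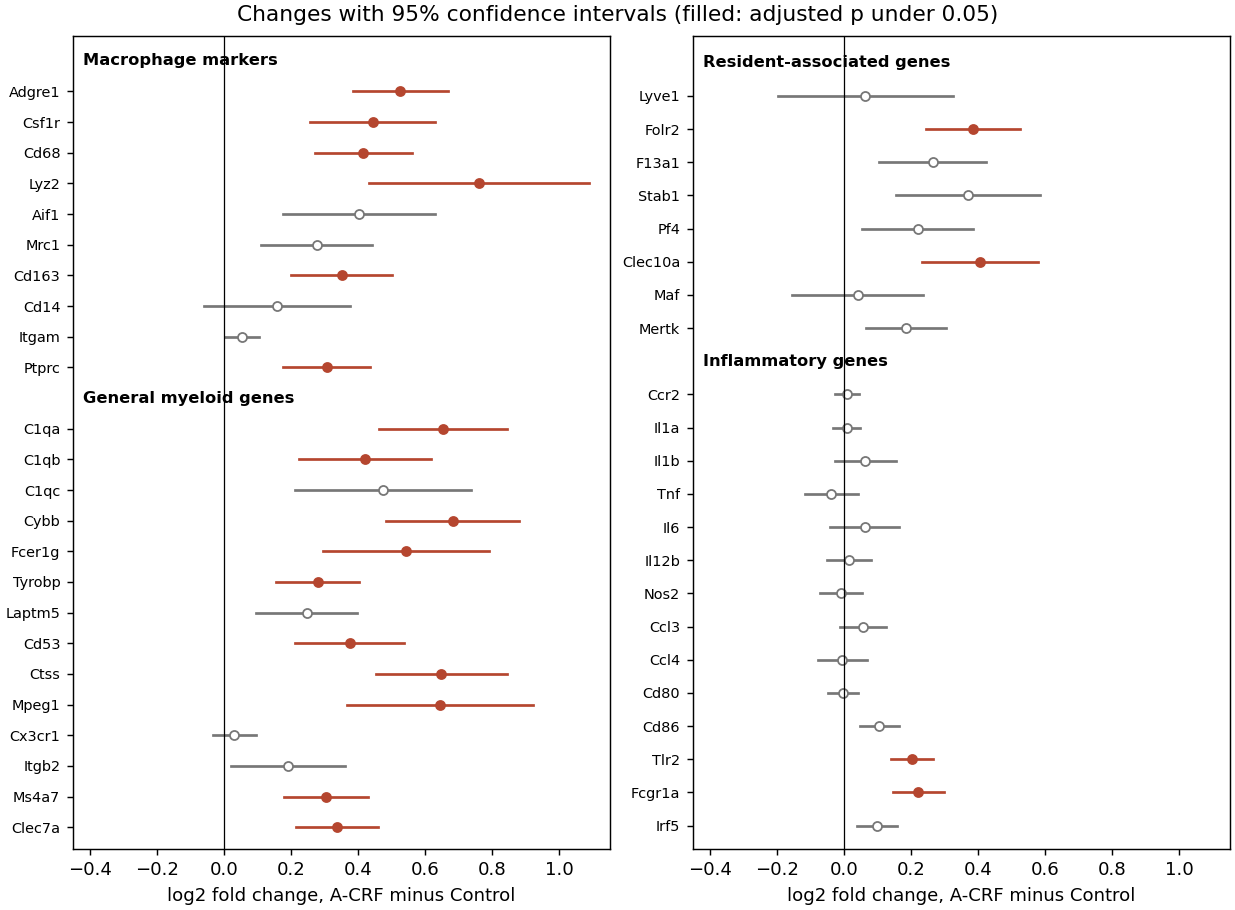
Log2 fold change, A-CRF minus Control, on the horizontal axis for each macrophage marker and each gene of the general myeloid, resident-associated and inflammatory lists, with 95% confidence intervals from limma; filled red points have an adjusted p under 0.05. Rises are in 6 of 10 markers, 10 of 14 general myeloid, 2 of 8 resident-associated and 2 of 15 inflammatory genes; Ptgs2 of the last list is left out of the plot for its wide interval, -0.95 to 0.76.

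Signals that feed or recruit macrophages were described next. Of 11 such genes, 2 rose, 0 fell and 9 did not pass, with a median of 0.16, where 1.93% of all genes rose. Vcam1, an adhesion molecule that binds monocytes and lymphocytes, had signals of 9.43, 9.85 and 10.24 in A-CRF, against 8.85, 8.91 and 9.53 in Control. All but 1 of the A-CRF arrays lay above the highest Control array, Control 3, and the rise was 0.86 ± 0.13 (SE; adjusted p = 0.0073). Csf2ra, a chain of the GM-CSF receptor, rose by 0.16 ± 0.03 (SE; adjusted p = 0.0231) at a low signal. The ligands of Csf1r did not pass: Csf1 differed by -0.03 ± 0.04 (SE) and Il34 by 0.08 ± 0.03. Ccl2, a chemokine that attracts monocytes, had 5.60, 5.96 and 6.57 in A-CRF, against 5.51, 5.61 and 6.29 in Control, with overlapping groups and a difference of 0.30 ± 0.16 (SE; adjusted p = 0.439). Genes of lipid-handling macrophages gave 0 calls among 9 by limma, with a median of 0.10, 3 at an unadjusted p under 0.05 and 0 by the rank-sum test. Within that list Spp1 (osteopontin) differed by 0.49 ± 0.18 (SE; adjusted p = 0.183) and Lpl (lipoprotein lipase), which adipocytes also make, by -0.39 ± 0.34.

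Markers of other white blood cells were examined because Ptprc and several myeloid genes are shared with them. By limma 0 of 7 T cell, 0 of 2 B cell, 0 of 3 neutrophil, 0 of 4 mast cell, 0 of 3 dendritic cell and 0 of 4 natural killer cell genes passed, and by the rank-sum test also 0 in each list. At an unadjusted p under 0.05 the counts were 0, 0, 1, 2, 1 and 0 in the same order. Median differences ran from -0.01 in the T cell list to 0.04 in the mast cell list. Examples are the T cell genes Cd2 and Cd3d, at -0.03 ± 0.02 and -0.03 ± 0.03 (SE), the B cell genes Ms4a1 and Cd79b, at 0.01 ± 0.02 and 0.01 ± 0.03, and the natural killer genes Nkg7 and Klrd1, at 0.04 ± 0.03 and 0.02 ± 0.03. Cxcr2 and S100a9 of neutrophils differed by 0.05 ± 0.02 and 0.04 ± 0.03, Cpa3 and Cma1 of mast cells by 0.10 ± 0.03 and 0.06 ± 0.02, and Itgax and Clec9a of dendritic cells by 0.17 ± 0.07 and 0.03 ± 0.03. In Control aortas 2 of the 7 T cell genes and none of the genes of the other 5 lists averaged more than 1 log2 unit above the lowest value, so their signals were at or near the bottom of the scale.

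The make-up of the pieces of aorta also varied. The mean of 4 white adipocyte markers ran from 6.15 to 7.44 in A-CRF and from 6.88 to 7.48 in Control; 0 of the 4 passed by limma, 0 had an unadjusted p under 0.05 and 0 passed by the rank-sum test. All 4 differences were negative, with a median of -0.25 and with Cidec and Plin1, both of fat droplets, at -0.49 ± 0.27 and -0.29 ± 0.25 (SE). The mean of 5 smooth muscle genes ran from 10.03 to 10.41 in A-CRF, against 10.35 to 10.96 in Control, and of these Myh11, the smooth muscle myosin heavy chain, fell by 0.29 ± 0.07 (SE; adjusted p = 0.0428) while the other 4 did not pass. All 5 smooth muscle differences were negative, with a median of -0.26, and 3 had an unadjusted p under 0.05. Tagln, which encodes an actin-binding protein and is named here after its values were seen, had 11.51 to 11.76 in A-CRF and 11.77 to 12.21 in Control, without overlap, a difference of -0.26 ± 0.07 (SE; adjusted p = 0.0594). The p-values given for smooth muscle genes are from limma. By the exact rank-sum test 1 of the 5 passed, and Tagln was the only gene of the 5 without overlap. The share of all genes without overlap and lower in A-CRF is not given here. The part of smooth muscle content in the marker changes was not tested. Endothelial genes gave 0 calls of 3 by limma, 0 at an unadjusted p under 0.05 and 0 by the rank-sum test, with Kdr at -0.20 ± 0.10 and Pecam1 at 0.17 ± 0.11 (SE). With the adipocyte marker mean in the model, 4 of the 10 macrophage markers passed: Adgre1 (0.52, adjusted p = 0.0091), Cd68 (0.38, 0.0224), Cd163 (0.36, 0.0412) and Csf1r (0.42, 0.0491). Ptprc and Lyz2 then had log2 differences of 0.29 and 0.74, beside 0.31 and 0.76 without the covariate, and an adjusted p of 0.0508 each, in ranges of 0.0124 to 0.0599 and 0.0092 to 0.0975 over all alternatives.

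Genes of the circadian clock separated the A-CRF arrays, since 5 of the 8 had a clock score between -1.06 and -0.58 and A-CRF 6, A-CRF 7 and A-CRF 8 scored 0.57, 0.57 and 0.69, against -0.39 to 0.81 in Control. The score is the mean of 6 clock-related genes such as Per2 and Nr1d1 minus the mean of Bmal1, Npas2 and Clock, centred over the 14 arrays. Per2 differed by -0.85 ± 0.22 (SE; adjusted p = 0.0616), Nr1d1 by 0.43 ± 0.22 (adjusted p = 0.42), and Npas2 rose by 0.78 ± 0.18 (adjusted p = 0.0411). With the clock score in the model, 2 of the 10 markers passed, Adgre1 (0.48, adjusted p = 0.0173) and Cd68 (0.34, adjusted p = 0.0359), and Csf1r, Lyz2, Cd163 and Ptprc had adjusted p of 0.0901, 0.0975, 0.0927 and 0.0599. The log2 differences of these 4 were then 0.36, 0.69, 0.33 and 0.22, beside 0.44, 0.76, 0.35 and 0.31 without the score.

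**Figure D3:**
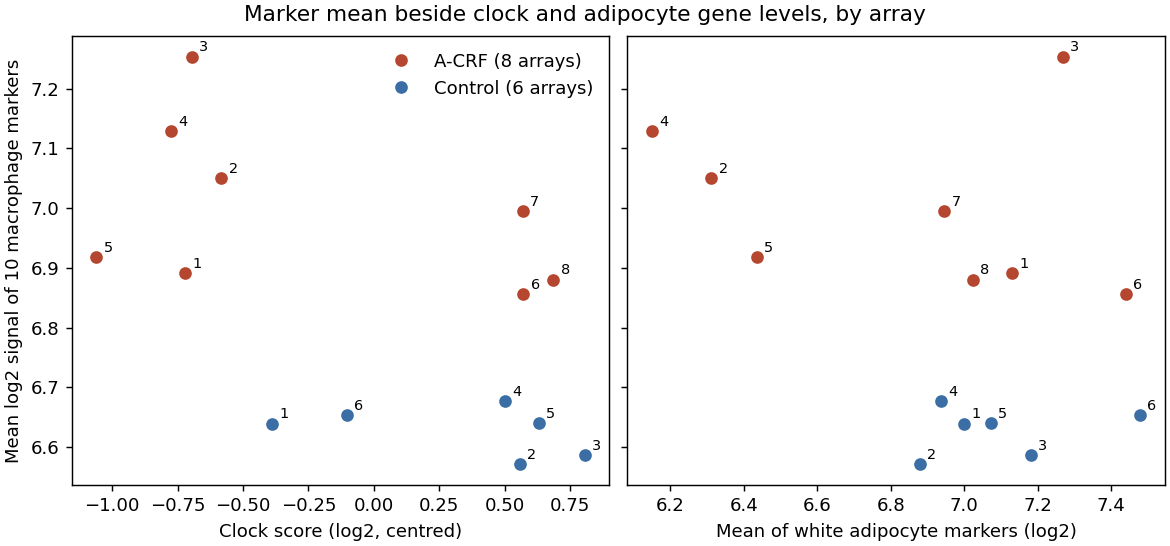
Mean log2 signal of the 10 macrophage markers on each array (vertical axis) beside the clock score (left, log2, centred) and the mean log2 signal of 4 white adipocyte markers (right); red points are A-CRF arrays and blue points Control arrays, numbered by array. All A-CRF arrays lie at or above 6.86 and all Control arrays at or below 6.68 on the vertical axis. Clock scores of 5 A-CRF arrays lie between -1.06 and -0.58, below all Control arrays, whose lowest is -0.39.

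Across arrays of 1 group, the marker mean was set against the adipocyte mean, the clock score and the GAPDH 3' minus 5' difference, which is large where labelled transcripts are short and was 1.58 to 1.90 on A-CRF 1, A-CRF 4 and Control 1 and 0.37 to 0.55 on the other 11 arrays. None of the 6 relations passed an exact permutation test (two-sided, adjusted p = 0.994 for each Pearson's r and 0.535 or more for each Spearman's rho). In A-CRF (n = 8) r was -0.24 with the adipocyte mean, -0.44 with the clock score and 0.03 with the GAPDH difference, and rho was -0.45, -0.48 and 0.12. Without the 2 arrays farthest from the median of each score, r became 0.17, -0.04 and 0.61. In Control (n = 6) r was 0.21, -0.42 and 0.07, rho was 0.26, -0.37 and -0.66, and r without the 2 farthest arrays was -0.96, -0.50 and -0.83. Over so few arrays these values moved widely with 2 arrays removed.

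Among A-CRF arrays most pairs of markers were positively correlated, but no single pair passed after adjustment. The 45 pairs of markers had a median Pearson's r of 0.57 over the 8 A-CRF arrays, between -0.16 and 0.93, with 43 positive; the median Spearman's rho was 0.43. By an exact permutation test (two-sided, n = 8) 13 pairs had an unadjusted p under 0.05 and 0 passed after adjustment over the 45 pairs, the lowest adjusted p being 0.0791. A-CRF 3 held the highest value of 6 markers (Csf1r, Cd163, Mrc1, Lyz2, Cd14 and Ptprc), A-CRF 4 of Adgre1 and Cd68, and A-CRF 2 of Aif1 and Itgam. Without A-CRF 3 the median r was 0.45. Without the 2 arrays farthest from the median of the first gene of each pair it was 0.18, with 26 positive pairs. Leaving out those arrays also narrows the range of the first gene, and leaving out any single A-CRF array gave a median r between 0.45 and 0.71. With the 2 A-CRF arrays of high GAPDH difference left out it was 0.63 over 6 arrays.

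In Control arrays (n = 6) the median r over the 45 pairs was 0.04, between -0.88 and 0.95, with 23 positive and 22 negative. By an exact permutation test 5 pairs had an unadjusted p under 0.05 and 0 passed after adjustment, with a lowest adjusted p of 0.0625. With 6 arrays the smallest possible p is 0.0014, which adjusts to that value when a single pair reaches it, as Cd68 and Ptprc did (r = 0.95, rho = 1.0), so no single pair could pass. The difference between A-CRF and Control in these correlations was not tested. The SDs of these genes over Control arrays were 0.03 to 0.17, beside a median SD of 0.05 over all probe sets in Control.

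Particular pairs ran closer than others. The resident-associated receptors Cd163 and Mrc1 had r = 0.93 and rho = 0.69 over the 8 A-CRF arrays (exact permutation p = 0.0128, adjusted p = 0.082), and r = 0.64 without the 2 farthest arrays; in Control r was 0.44. Mrc1 and Cd14 had r = 0.87 and rho = 0.86 in A-CRF (exact permutation p = 0.0052, adjusted p = 0.0791) and r = 0.90 in Control (exact permutation p = 0.0181, adjusted p = 0.25). The monocyte-associated pair Cd14 and Itgam had r = 0.36 in A-CRF and -0.54 in Control, with Itgam read close to the bottom of the scale. Over all their pairs in A-CRF, r ran from -0.05 to 0.87 for Cd14 and from 0.32 to 0.81 for Itgam. Csf1r and Cd163 had the lowest exact permutation p in A-CRF, 0.0040 (r = 0.85, adjusted p = 0.0791), and r = 0.37 without the 2 farthest arrays. The median r of Aif1 over its pairs in A-CRF was 0.46, beside 0.47 for Cd14 and for Lyz2 and 0.71 for Csf1r. That median covers a wide range. The 2 negative pairs in A-CRF were those of Aif1 with Mrc1 (-0.16) and with Cd14 (-0.05). Aif1 had r = 0.01 with Cd163 and 0.08 with Adgre1, and r = 0.81 with Itgam. Of its 9 pairs in A-CRF, 7 were positive. In Control its median of 0.17 lay between -0.47 for Cd14 and 0.48 for Cd68. Over all 14 arrays, with group means removed, Aif1 had the lowest r with the mean of the remaining 9 markers, at 0.33. Csf1r had r = 0.83 by that measure and the remaining 8 lay between 0.51 and 0.69. These last values are a description of arrays that share the group and the tissue, with no test.

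**Figure D4:**
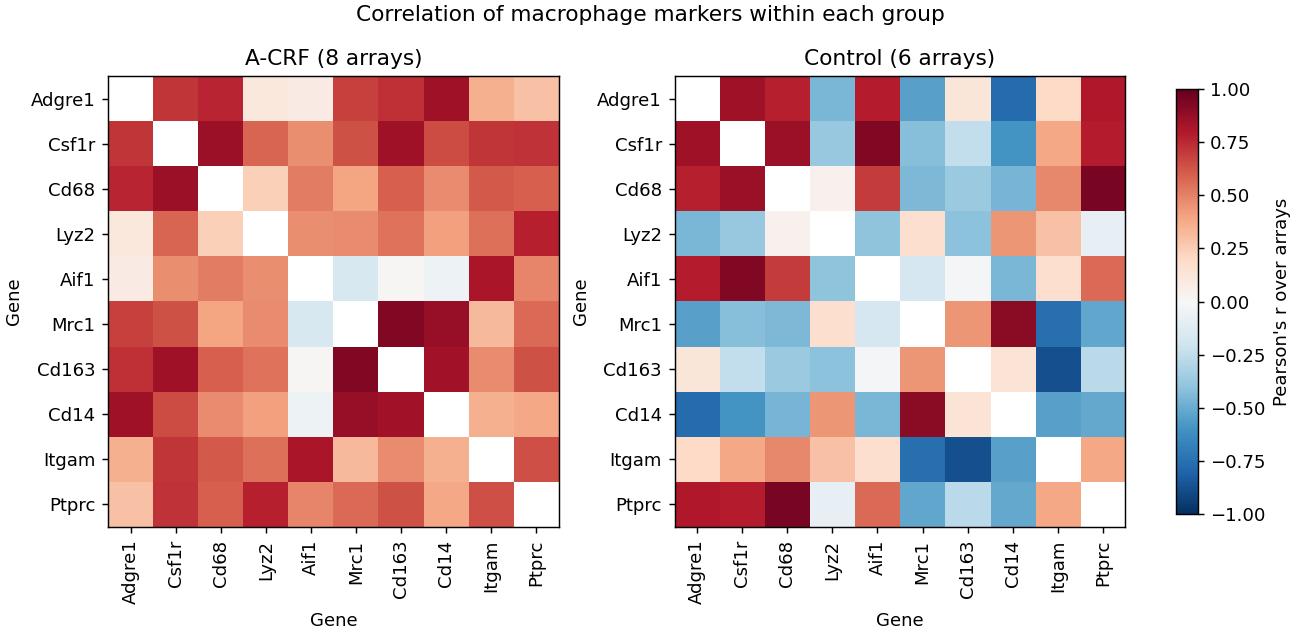
Pearson's r between each pair of the 10 macrophage markers over the 8 A-CRF arrays (left) and the 6 Control arrays (right), from -1 in blue to 1 in red. In A-CRF 43 of 45 pairs are positive with a median of 0.57, in Control 23 of 45 with a median of 0.04; 0 pairs pass after adjustment in either group.

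The genes whose deviations from their group means over the 14 arrays were most like the mean deviation of the 10 markers were, in order, Il10ra, Bad, Tyrobp, Ifi30, Ctsa, Ifngr1, Arl11, Itgb2, Nme1 and Coro1a, with r between 0.94 and 0.90. The 9308 genes ranked were those with a mean signal above the median of all probe sets. Over them the median r was 0.03, the 95th percentile 0.61, and 74 genes exceeded 0.8. These are descriptions with no p. Each of the 10 genes had a larger SD in A-CRF than in Control, such as 0.27 and 0.03 for Ctsa and 0.11 and 0.08 for Nme1. Tyrobp encodes the adaptor DAP12 of myeloid receptors, Ifi30 a lysosomal thiol reductase, Itgb2 the shared beta chain of leukocyte integrins and Coro1a an actin-binding protein of white blood cells. Of the 10, 3 rose in A-CRF by limma, where 1.93% of all genes rose. Ifi30 rose by 0.45 ± 0.07 (SE, adjusted p = 0.0051), Tyrobp by 0.28 ± 0.06 (adjusted p = 0.0252) and Arl11 by 0.23 ± 0.04 (adjusted p = 0.0191). Il10ra, a chain of the interleukin-10 receptor and the gene most like the markers over arrays, differed by 0.07 ± 0.05 (SE, adjusted p = 0.526). Ctsa, a lysosomal carboxypeptidase, differed by 0.35 ± 0.10 (adjusted p = 0.105). The Control means of Il10ra, Arl11 and Coro1a, at 5.67, 5.63 and 5.62, were less than 1 log2 unit above the lowest value.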

How the data were processed

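Thoracic aorta samples (8 A-CRF, 6 Control) were profiled on 1-colour Affymetrix arrays. The authors deposited 1 log2 value per probe set and array; per the submitters' processing notes the tool was PLIER, with no version. The log base was inferred from the range, 4.82 to 12.64, and neither normalization nor offset is stated in the labels; an offset would compress changes of weak genes. Groups came from the treatment label, and arrays were numbered in accession order.

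Of 31099 probe sets, 57 manufacturer controls were left out. A single symbol was given for 20826, several for 436 and none for 9780; 20758 were found by Entrez identifier in RefSeq and 0 symbols changed. All 31042 were tested with limma 3.58.1 (R 4.3.3), lmFit and eBayes, group as the only factor, two-sided, with Benjamini-Hochberg adjustment and a threshold of 0.05. Values close to the lowest are within 1 log2 unit of it. Correlations were tested by exact permutation, computed with NumPy 2.4.6, with ranks from SciPy 1.17.1. The scripts were tested on simulated data.

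Members and all 17 gene lists were chosen with earlier results of these data known. Genes named are the 10 markers, up to 4 genes past the threshold per list or, where none passed, the 2 with the largest change, C1qa, C1qb, C1qc, Cybb, Lyve1, Folr2, Ccr2, Il1b, Tnf, Csf1, Il34, Ccl2 and Vcam1 in any case, and the 10 genes most like the markers; other genes of the general myeloid list were named after their values were seen. Alternatives were an offset of 16, median centring, quantile normalization, a filter on probe sets below the 40th percentile of mean signal, trended robust eBayes, array weights, averaging the probe sets of a gene, an exact rank-sum test, adipocyte or clock scores as covariates, and leaving out the 3 arrays of high GAPDH difference or each array in turn.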

Additional observations from a re-analysis of the deposited data

Results flagged for a closer look

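Among 130 groups of arrays (61 named genes and the means of the markers and 3 lists, each in A-CRF and in Control), 9 had a highest or lowest array far from the others by Dixon's test, which chance alone gives for about 1 group in 20. Of the 20 groups of the macrophage markers, 2 did. Both were A-CRF 3, at 6.73 for Cd163, with the other A-CRF arrays at 6.26 to 6.45, and at 7.88 for Mrc1, with the others at 7.36 to 7.56. A-CRF 3 also stood apart for Spp1, at 12.10 against 10.59 to 11.25 on the other A-CRF arrays, and for Il1b, at 5.71 against 5.41 to 5.55. A-CRF 2 was high for Nkg7, at 5.62 against 5.36 to 5.47. In Control, Vcam1 was high on Control 3, at 9.53 against 8.85 to 8.999, Ccl2 on Control 6, at 6.29 against 5.51 to 5.74, and Coro1a on Control 1, at 5.74 against 5.57 to 5.62. Klrd1 was low on Control 5, at 4.97 against 5.05 to 5.10. Without A-CRF 3, Cd163 rose by 0.30 on the log2 scale and still passed the test, and Mrc1 differed by 0.22.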

How the results depend on the processing

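Of the alternatives tried, none reversed the direction of any marker or count. Against 636 calls over all probe sets, array weights gave 1457, the adipocyte covariate 382, the clock covariate 149, and leaving out 1 array 307 to 979 (979 without A-CRF 1, 416 without A-CRF 3, 352 without A-CRF 5, and 420, 345, 307 and 365 without Control 2, 4, 5 and 6). The marker count of 6 became 2 with the clock covariate and 5 to 6 with 1 array left out. The general myeloid count of 10 became 3 with the clock covariate and 5 to 11 with 1 array left out. The resident count of 2 became 1 by the rank-sum test, 1 with the adipocyte covariate, 0 with the clock covariate and 1 to 3 with 1 array left out, and the inflammatory count of 2 became 2 to 4. The median marker difference ranged from 0.35 to 0.40 with 1 array left out. The median correlation of 0.57 in A-CRF became 0.18 without the 2 farthest arrays and 0.45 to 0.71 with 1 A-CRF array left out, an alternative chosen after seeing the data. The causes were not tested, beyond fewer arrays. No paired analysis was possible because the labels give no replicate numbers that the groups share. Weak signal limits Itgam and all but 3 of the 15 inflammatory genes.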
